A study of Oryza sativa with 6 samples.

Results

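The genes described here are the 200 rice genes whose messenger RNA was most enriched in S-type lateral roots over nodal roots. They were chosen from 37942 gene models by the deposited values of 4 libraries, the S-type and nodal libraries of both treatments. A gene was eligible with at least 200 scaled fragments in both S-type libraries, which 7682 genes had. Its score was the smaller of the log2 ratios of S-type over nodal level under salt and under control, and the 200 highest scores were taken. One gene that the rule names was left out beforehand and is not reported here. The S-type enrichment is therefore the selection itself and is given only as a description. The L-type libraries took no part in the choice, and the questions are how high these genes stood in L-type roots and how their levels differed between salt and control.

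Messenger RNA of the rice genotype Mulai was sequenced from L-type lateral, S-type lateral and nodal roots, after 7 days with 50 mM NaCl and in control plants, with 1 library for each of the 6 groups. All groups share the genotype and, apart from the NaCl, the growth conditions, and no group carries a transgene or mutation in the labels. With 1 library per group no difference below has a replicate check, and the 95% intervals given cover counting error only. The labels do not say how many plants a library holds, or whether 1 plant gave roots of every type.

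Nodal roots are the shoot-borne roots that form most of the root system of a mature rice plant, and lateral roots branch from them. S-type laterals are short, thin and unbranched, while L-type laterals are longer and thicker and bear branches of their own. Lateral roots make up much of the absorbing surface, and they differ from nodal roots in tissue makeup, with fewer cell layers and much less vascular tissue. In whole roots, fewer cells of a type and less RNA per cell cannot be told apart.

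The salt libraries held 7194615 fragments in genes for L-type, 8711710 for S-type and 7908373 for nodal roots, and the control libraries held 5620282 for L-type, 6229661 for S-type and 7897875 for nodal roots. Levels are the deposited scaled fragments: whole fragments per gene times 1 factor per library, not corrected for gene length. A marker list for secondary wall formation in xylem, the cellulose synthases CESA4, CESA7 and CESA9, summed to 131.5 scaled fragments in salt S-type and 126 in control S-type roots, against 4613 in salt nodal and 6252 in control nodal roots. No list of markers that defines S-type roots was available. A list of 3 green tissue genes summed to between 26.1 and 232.8 scaled fragments in any library.

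The scores of the members reached from 2.90 to 10.8 on the log2 scale, with a median of 3.64. The median ratio of S-type over nodal level was 3.72 under salt and 4.22 under control. At the lower end the choice is continuous: the lowest member score was 2.902, and the next 4 genes had scores of 2.901 down to 2.882. The nodal levels were low, and 11 members had at most 3 fragments in a nodal library. Of these, 4 had at most 3 in both nodal libraries and 1, a model on chromosome 5 without an identifier of the Rice Annotation Project, had 0 in both.

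A pair of unnamed genes had the highest S-type levels in both treatments. Os11g0428800 had 738 scaled fragments in L-type, 62783 in S-type and 53.1 in nodal roots under salt, against 1668 in L-type, 67555 in S-type and 24.3 in nodal roots under control. Its gene model lies on chromosome 11, 13723177 to 13724624 (IRGSP-1.0, 1-based, as are all coordinates here). Os02g0583700 had 187 scaled fragments in L-type, 17596 in S-type and 9.12 in nodal roots under salt, against 777 in L-type, 39834 in S-type and 6.08 in nodal roots under control. It lies on chromosome 2, 22509550 to 22510620. These genes alone held 1.03% of the salt S-type and 1.34% of the control S-type signal, against 0.0140% of the salt L-type and 0.0347% of the control L-type signal. In FPKM, which corrects for length, Os11g0428800 had 16876 in salt S-type and 18071 in control S-type roots. All 200 members together held 4.94% of the S-type signal under salt and 5.31% under control. In L-type roots they held 0.842% under salt and 1.21% under control, and in nodal roots 0.309% under salt and 0.240% under control.

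In FPKM the median member had 17.9 in L-type, 104.9 in S-type and 6.58 in nodal roots under salt. Under control it had 30.2 in L-type, 112.6 in S-type and 4.96 in nodal roots. The median level in L-type roots was thus closer to the nodal than to the S-type level on this linear scale in both treatments, and it was lower under salt. The plot of levels by library shows the same on the scale of scaled fragments.

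**Figure D1:**
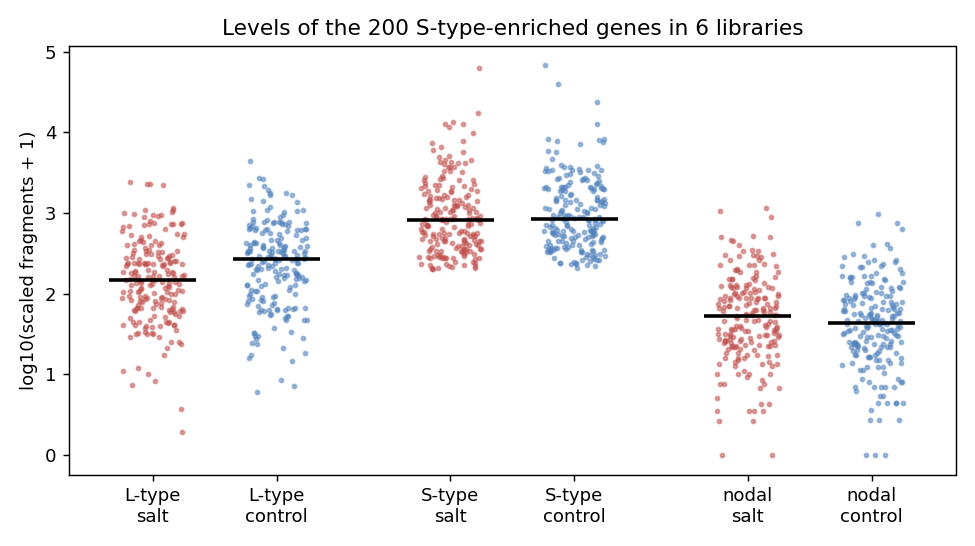
Levels of the 200 S-type-enriched genes in the 6 libraries, as log10 of scaled fragments plus 1; each point is a gene and each bar the median of 1 library. The L-type medians are 147.1 under salt and 265.6 under control, between the S-type medians of 827 under salt and 839.6 under control and the nodal medians of 52.7 under salt and 42.1 under control.

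The members were spread over all 12 chromosomes, from 1.79% of the eligible genes on chromosome 6 to 3.22% on chromosome 9. Their gene models were short, with a median length of 2330 bases against 4575 over the eligible genes. For the 200 genes most enriched in nodal over S-type roots by the mirrored rule (at least 200 scaled fragments in both nodal libraries), the median length was 3618 against 4679 over the genes eligible there. Some members stood next to each other: 32 of them formed 14 groups in which neighbours lay within 5 gene models. Of the eligible genes directly next to a member, 8% were members, against 2.60% of all eligible genes. Among the nodal-enriched genes 20 formed 8 such groups, and the same shares were 8% and 2.76%.

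Names are scarce for these genes, because the files pair no identifier with a name. A symbol is used here only where a recalled pair of identifier and symbol also matched, in a RefSeq table of a different rice assembly, the chromosome, position and length. Of 16 symbols recalled after the values were seen, 14 passed, and these 14 members are described first by role. None of the 50 checked genes on 8 fixed lists was a member; those lists cover secondary walls, dividing cells, root hairs, green tissue, aquaporins, iron acquisition, nitrogen and phosphate uptake, and diterpenoid phytoalexins.

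NRAMP5 (Os07g0257200, chromosome 7, 8871632 to 8879127) is the plasma membrane transporter through which rice roots take up manganese and cadmium. NRAMP5 had 961 scaled fragments in L-type, 3771 in S-type and 450.3 in nodal roots under salt, against 743 in L-type, 3391 in S-type and 230.2 in nodal roots under control. The S-type level was highest in both treatments and the L-type level stood between the others. The log2 ratio of salt over control was 0.37 in L-type (interval 0.22 to 0.52), 0.15 in S-type and 0.96 in nodal roots. Iron acquisition genes had another pattern. Of 9 named genes on that list, 7 had enough signal in L-type roots, and of these 6 were at least 2-fold lower and 1 higher under salt there. In S-type roots the counts were also 6 lower and 1 higher of 7, and in nodal roots 1 lower and 1 higher of 7. Over all genes 4.22% were lower and 1.64% higher in L-type, 1.8% and 1.63% in S-type, and 1.75% and 1.27% in nodal roots. NRAMP1, a relative of NRAMP5, had 24.8 scaled fragments in salt L-type and 392.1 in control L-type roots. It had 30.6 in salt S-type and 1138 in control S-type roots, and 37.3 in salt nodal and 55.6 in control nodal roots.

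Of the members with a checked symbol, CYP90B2 and LOGL3 act in hormone synthesis. CYP90B2 (Os03g0227700, chromosome 3, 6735224 to 6744486) is the DWARF4-type enzyme of brassinosteroid synthesis. CYP90B2 had 291 scaled fragments in L-type, 2319 in S-type and 155 in nodal roots under salt, against 332 in L-type, 1861 in S-type and 91.2 in nodal roots under control. Its L-type level was between the others, and the salt ratio was -0.19 in L-type (interval -0.43 to 0.05), 0.32 in S-type and 0.76 in nodal roots. LOGL3 (Os03g0109300, chromosome 3, 537614 to 542607) belongs to the LONELY GUY family, whose enzymes release active cytokinins. LOGL3 had 64.4 scaled fragments in L-type, 332 in S-type and 16.6 in nodal roots under salt, against 52.6 in L-type, 399 in S-type and 6.95 in nodal roots under control. Its nodal libraries held few fragments, and its salt ratio was 0.29 in L-type (interval -0.28 to 0.88), -0.26 in S-type and 1.15 in nodal roots. Both genes thus had L-type salt ratios within 2-fold.

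Of the transcription factors, WRKY76 (Os09g0417600, chromosome 9, 14976197 to 14977729), a member of the WRKY family known as a repressor in rice defence, stood out in L-type roots. WRKY76 had 108 scaled fragments in L-type, 478 in S-type and 29.0 in nodal roots under salt, against 406 in L-type, 417 in S-type and 21.7 in nodal roots under control. Under control the L-type level was close to the S-type level, and under salt it was much lower. Its salt ratio was -1.91 in L-type (interval -2.23 to -1.61), 0.20 in S-type and 0.40 in nodal roots. DREB1G (Os02g0677300, chromosome 2, 27652935 to 27654206), of the DREB1 family named for dehydration-responsive elements, had salt ratios of -0.68 in L-type (interval -0.96 to -0.41), -0.65 in S-type and 0.06 in nodal roots. DREB1G had 187 scaled fragments in L-type, 517 in S-type and 67.2 in nodal roots under salt, against 299 in L-type, 813 in S-type and 64.3 in nodal roots under control. The S-type level was again the highest in both treatments. HSFB1 (Os09g0456800, chromosome 9, 17221479 to 17228923), a class B heat shock factor, had salt ratios of -0.41 in L-type (interval -0.79 to -0.03), -0.29 in S-type and -0.29 in nodal roots. HSFB1 had 110.4 scaled fragments in L-type, 416 in S-type and 52.2 in nodal roots under salt, against 147 in L-type, 508 in S-type and 64.3 in nodal roots under control. Neither DREB1G nor HSFB1 reached 2-fold in any root type.

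MADS56 (Os10g0536100, chromosome 10, 20863187 to 20873804), a MADS-box factor known from flowering time control in rice, was one of the members with the highest L-type level relative to S-type. MADS56 had 321 scaled fragments in L-type, 459 in S-type and 26.5 in nodal roots under salt, against 321 in L-type, 598 in S-type and 45.2 in nodal roots under control. Its L-type level was the same in both treatments, with salt ratios of 0.00 in L-type (interval -0.24 to 0.24), -0.38 in S-type and -0.75 in nodal roots. ROC8 (Os06g0208100, chromosome 6, 5498534 to 5502952), a class IV homeodomain-leucine zipper factor of the group expressed in the epidermis, was the opposite case. ROC8 had 0.920 scaled fragments in L-type, 339 in S-type and 2.49 in nodal roots under salt, against 5.01 in L-type, 219.9 in S-type and 5.21 in nodal roots under control. Only the S-type libraries held appreciable signal. Its L-type libraries held 1 fragment under salt and 4 under control, and the log2 ratio of L-type over S-type was -7.47 under salt (interval -13.83 to -6.04) and -5.20 under control (interval -7.35 to -4.07).

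CIPK7 (Os03g0634400, chromosome 3, 24226372 to 24227930) is a kinase of the family that works with calcineurin B-like calcium sensors. CIPK7 had 90.1 scaled fragments in L-type, 736 in S-type and 53.9 in nodal roots under salt, against 192 in L-type, 615 in S-type and 63.4 in nodal roots under control. Its salt ratio was -1.08 in L-type (interval -1.47 to -0.71), 0.26 in S-type and -0.23 in nodal roots, so that of the root types only L-type passed 2-fold. OC-I (Os01g0803200, chromosome 1, 34033159 to 34034924), oryzacystatin, an inhibitor of cysteine proteases, was the most abundant named member. OC-I had 2228 scaled fragments in L-type, 12870 in S-type and 1157 in nodal roots under salt, against 4385 in L-type, 24103 in S-type and 751 in nodal roots under control. Both lateral root types were lower under salt and nodal roots higher, each by less than 2-fold, with ratios of -0.98 in L-type (interval -1.05 to -0.90), -0.91 in S-type and 0.62 in nodal roots.

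The last group acts in walls, membranes and metabolism. BC1L6 (Os07g0604300, chromosome 7, 24751787 to 24755315) belongs to the COBRA-like family of cell wall proteins, and its salt ratio was -1.26 in L-type (interval -1.77 to -0.79), 0.13 in S-type and -0.15 in nodal roots. BC1L6 had 52.4 scaled fragments in L-type, 927 in S-type and 24.9 in nodal roots under salt, against 127 in L-type, 845 in S-type and 27.8 in nodal roots under control. BGLU31 (Os09g0511600, chromosome 9, 19882650 to 19888155), a glycoside hydrolase family member known in rice as a transglucosidase, had salt ratios of -1.18 in L-type (interval -1.68 to -0.72), -0.44 in S-type and -0.91 in nodal roots. BGLU31 had 55.2 scaled fragments in L-type, 664 in S-type and 24.9 in nodal roots under salt, against 127 in L-type, 899 in S-type and 47.8 in nodal roots under control. In both genes the L-type level was at least 2-fold lower under salt while the S-type ratio stayed within 2-fold. MGD3 (Os02g0802500, chromosome 2, 34210424 to 34214885), a monogalactosyldiacylglycerol synthase making galactolipids, had salt ratios of -0.39 in L-type (interval -0.53 to -0.25), 0.03 in S-type and 0.26 in nodal roots. MGD3 had 796 scaled fragments in L-type, 7296 in S-type and 97.9 in nodal roots under salt, against 1041 in L-type, 7157 in S-type and 81.7 in nodal roots under control. Its S-type level was far above the nodal level in both treatments. MS (Os04g0486950, chromosome 4, 24325769 to 24328250) encodes malate synthase of the glyoxylate cycle, with salt ratios of -0.63 in L-type (interval -0.87 to -0.40), -0.52 in S-type and 0.31 in nodal roots. MS had 256 scaled fragments in L-type, 1467 in S-type and 119 in nodal roots under salt, against 397 in L-type, 2097 in S-type and 95.6 in nodal roots under control. MGD3 and MS were within 2-fold in all 3 root types.

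**Figure D2:**
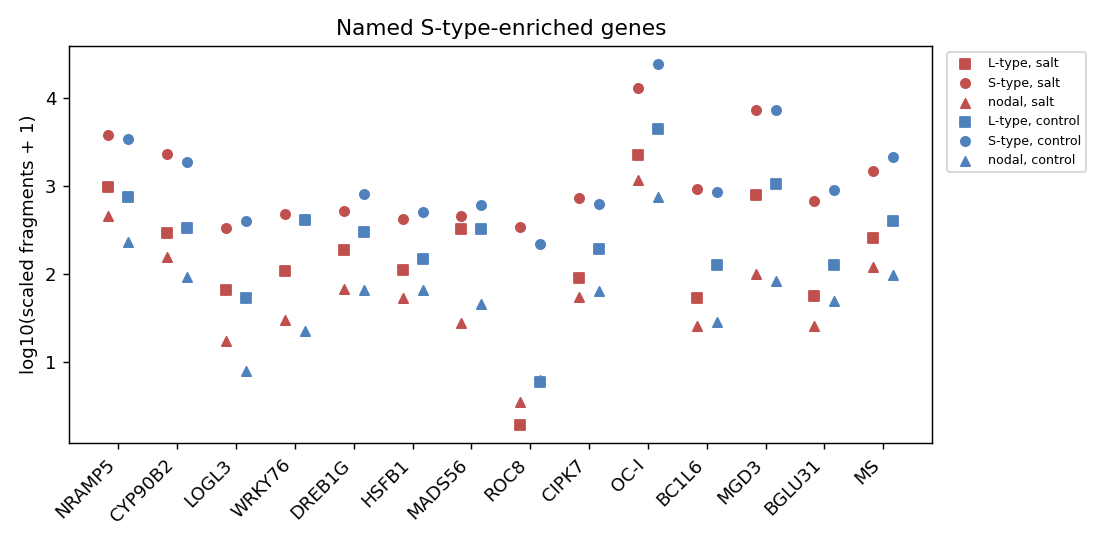
Levels of the 14 named S-type-enriched genes as log10 of scaled fragments plus 1, with 1 symbol for each library: squares for L-type, circles for S-type, triangles for nodal roots, salt to the left of control within a gene. In WRKY76 the control L-type point (406 scaled fragments) lies at the S-type level and the salt L-type point (108) lies below it.

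The L-type level of nearly all members was below the S-type level and above the nodal level. Under salt, 197 of 200 members had an L-type level at least 2-fold below S-type and 0 had one above, with a median log2 ratio of -2.48. Over all genes with at least 50 scaled fragments in the higher library, 11.5% were lower and 11.5% higher in that comparison. Under control, 170 of 200 were at least 2-fold lower and 0 higher, with a median of -2.10, and 11.5% of all genes were lower and 12.9% higher. The S-type libraries were used in choosing the members, so nothing is read from these counts. The 95% intervals of 195 members under salt and 161 under control lay wholly beyond 2-fold.

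Against nodal roots, 138 of the 164 members that had at least 50 scaled fragments in either library were at least 2-fold higher in L-type roots under salt, and 0 were lower. Their median log2 ratio was 1.41, and 4.52% of all genes were higher and 3.06% lower. Under control, 169 of 178 members were at least 2-fold higher and 0 lower, with a median of 2.50, and 11.2% of all genes were higher and 8.04% lower. Since nodal levels were chosen to be low, a member often met the minimum only through its L-type level, and these counts are descriptions as well. Members with 0 nodal fragments numbered 2 under salt and 3 under control, and of these 0 under salt and 1 under control met the minimum. With that 1 at the bound of 3 fragments the control median was 2.50.

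The members differed widely in this respect. Os01g0773800 had 108 scaled fragments in L-type, 348 in S-type and 21.6 in nodal roots under salt, against 628 in L-type, 420.5 in S-type and 24.3 in nodal roots under control. It lay above the S-type level under control, with a log2 ratio of L-type over S-type of 0.58, and below it under salt, with -1.69. Os03g0233000 had 416 scaled fragments in L-type, 1035 in S-type and 98.7 in nodal roots under salt, against 714 in L-type, 708 in S-type and 56.5 in nodal roots under control. Its L-type level was close to the S-type level under control and had a ratio of -1.31 under salt. Os02g0582900 had 197 scaled fragments in L-type, 4135 in S-type and 202 in nodal roots under salt, against 724 in L-type, 8285 in S-type and 742 in nodal roots under control. In this gene the L-type level was close to the nodal level in both treatments. Os07g0635200 had 179 scaled fragments in L-type, 1456 in S-type and 1.66 in nodal roots under salt, against 98.97 in L-type, 1149.5 in S-type and 0 in nodal roots under control. Its nodal libraries held 2 fragments under salt and 0 under control, so no fold over nodal roots is given.

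The place of the L-type level on the log2 scale between the nodal level, set at 0, and the S-type level, set at 1, had a median of 0.3665 under salt (quartiles 0.2865 and 0.4517) and 0.533 under control (quartiles 0.401 and 0.6705). It was lower under salt in 160 of 200 members. The L-type level was below the midpoint in 172 members under salt and in 88 under control. For the 200 nodal-enriched genes the place on the way to the level of their own root type was 0.652 under salt and 0.504 under control. In both sets the median L-type level stood nearer to the nodal level under salt than under control. Both ends of this scale come from libraries that chose the sets, and no minimum was applied, so the places are a description. A narrowing between L-type and nodal levels was also present across all measured genes. There a 2-fold excess of L-type over nodal level was found for 11.2% in control and 4.52% in salt. The reverse excess was found for 8.04% in control and 3.06% in salt. Between L-type and S-type levels the shares changed little: 11.5% were lower and 12.9% higher in control, and 11.5% lower and 11.5% higher in salt. The control L-type library held fewer fragments in genes (5620282) than the salt L-type library (7194615), and the part of depth in the narrowing was not tested.

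**Figure D3:**
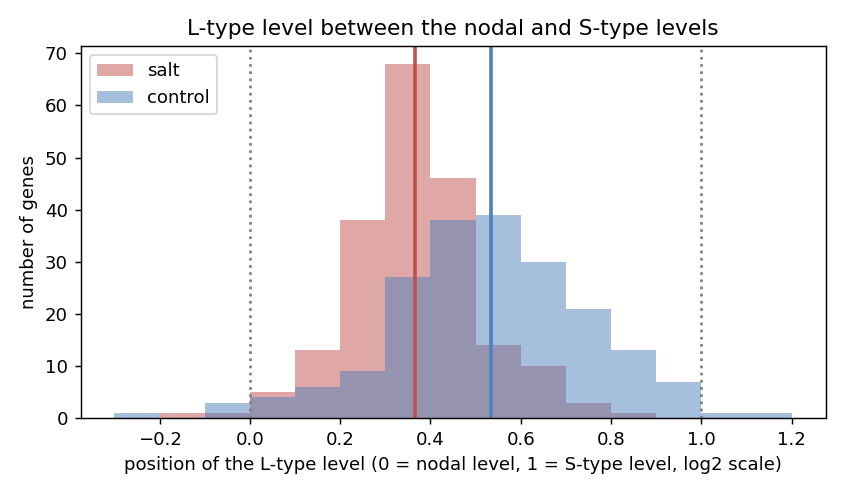
Number of S-type-enriched genes by the place of their L-type level on the log2 scale between the nodal level (0) and the S-type level (1), under salt and under control; vertical coloured lines are the medians. The salt median of 0.3665 lies below the control median of 0.533.

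Sorted by fold, 3 members under salt and 30 under control were within 2-fold of the S-type level in L-type roots. Between both levels lay 158 under salt and 149 under control, and within 2-fold of the nodal level 39 under salt and 21 under control. Of the 30 members close to the S-type level under control, 24 lay between the levels and 5 close to the nodal level under salt, and 1 remained. The median L-type salt ratio of these 30 was -1.36 on the log2 scale, and all 30 were within 2-fold in S-type roots. These 30 were picked by their control L-type level, which is also the denominator of that ratio. WRKY76 is one of them.

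**Figure D4:**
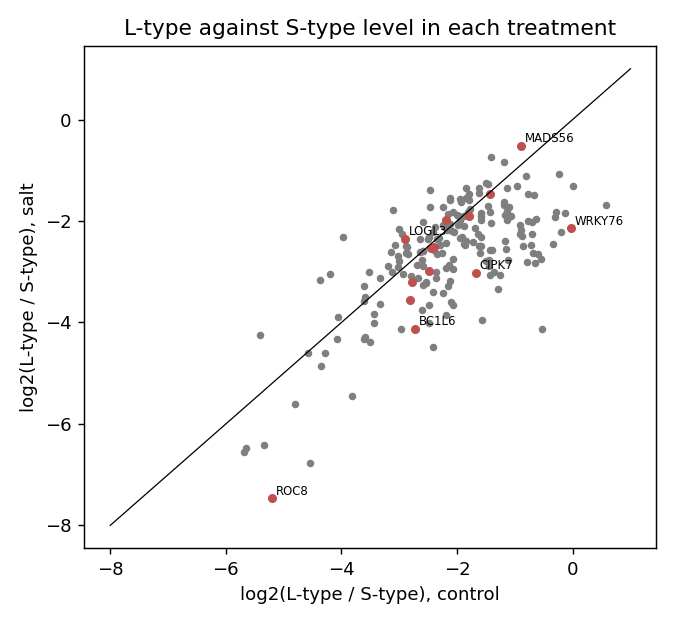
The log2 ratio of L-type over S-type level under salt (vertical) against the same ratio under control (horizontal) for the 200 S-type-enriched genes; named genes are red, 6 of them with their symbols, and the line marks equal ratios. Most points lie below the line; WRKY76 is at -0.04 under control and -2.14 under salt.

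In L-type roots, whose libraries took no part in the choice, members were mostly lower under salt than under control. Of 180 members with at least 50 scaled fragments in either library, 55 were at least 2-fold lower and 1 was higher, against 4.22% lower and 1.64% higher over all genes. Over the eligible genes, which have the same minimum in S-type roots, 3.97% were lower. The median log2 ratio was -0.62 for the members and 0.00 over all genes, and 143 of the 180 were below 0. Without a minimum, 60 of all 200 members were at least 2-fold lower and 2 higher. All 55 intervals excluded equal levels, and 38 lay wholly beyond 2-fold.

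The lowest ratio was that of Os04g0660900 (chromosome 4, 33729812 to 33732586). Os04g0660900 had 42.3 scaled fragments in L-type, 761 in S-type and 3.32 in nodal roots under salt, against 372 in L-type, 536 in S-type and 4.34 in nodal roots under control. Its L-type level was much lower under salt and its nodal libraries held few fragments, with salt ratios of -3.11 in L-type (interval -3.62 to -2.68), 0.50 in S-type and -0.31 in nodal roots. The only measured member at least 2-fold higher in L-type roots was Os01g0803900 (chromosome 1, 34089461 to 34091158). Os01g0803900 had 166 scaled fragments in L-type, 824 in S-type and 78.0 in nodal roots under salt, against 13.8 in L-type, 231 in S-type and 22.6 in nodal roots under control. It was higher under salt in every root type, with ratios of 3.49 in L-type (interval 2.71 to 4.61), 1.83 in S-type and 1.74 in nodal roots.

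Levels of tissue marker lists in the L-type libraries stand beside this result. The secondary wall list, with 3 of 3 named genes present, summed to 1169 scaled fragments in salt L-type and 757.9 in control L-type roots, a log2 ratio of 0.62, and none of its genes was at 0. Its ratio was 0.06 in S-type and -0.44 in nodal roots. Of 184 measured nodal-enriched genes, 14 were at least 2-fold higher in L-type roots under salt and 0 were lower, with a median of 0.23. The 4 genes of dividing cells summed to 2168 in salt L-type and 2265 in control L-type roots. The 3 green tissue genes summed to 56.1 in salt L-type and 199.2 in control L-type roots, a log2 ratio of -1.81, and CAB2R was at 0 in salt L-type roots. Of these sums CAB1R alone held 54.3 under salt and 191.7 under control. The ratio of the list was -1.30 in S-type and -1.81 in nodal roots. In nodal roots CAB1R and CAB2R were lower under salt, while RBCS was higher, with 17.4 under salt and 7.82 under control. The 2 named root hair genes summed to 79.1 in salt L-type and 55.1 in control L-type roots. The part of tissue makeup in the lower L-type levels was not tested.

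In S-type roots the salt ratios were centred near equality. Under salt 5 of 200 members had at least 2-fold more signal and 14 at least 2-fold less, against 1.63% higher and 1.8% lower over all genes, and the median was -0.07. The S-type libraries also chose the members, so these counts are a description. Of the 55 members at least 2-fold lower in L-type roots, 7 were also lower in S-type roots, 48 were within 2-fold and 0 were higher. The difference between the L-type and the S-type salt ratio had a median of -0.40 over the members and 0.02 over all genes. It was at least 2-fold toward lower in L-type roots for 55 members and toward higher for 6, against 6.22% and 3.35% of all genes in those directions. All 200 members entered this comparison through their S-type levels, while 180 had enough signal in L-type roots. The S-type libraries also chose the members, so the difference is a description and nothing is read from the comparison with all genes. With 1 library per group this difference between root types has no test.

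Os04g0538400 (chromosome 4, 26931464 to 26932639) had the highest ratio. Os04g0538400 had 996 scaled fragments in L-type, 9701 in S-type and 333 in nodal roots under salt, against 593 in L-type, 2662 in S-type and 66.0 in nodal roots under control. It was higher under salt in every root type, with ratios of 0.75 in L-type (interval 0.59 to 0.91), 1.87 in S-type and 2.32 in nodal roots. Os01g0803900, described above, came next. The lowest 2 were Os08g0190100 and Os05g0149400, which were lower in all root types and are described with the test over root types.

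In nodal roots 109 members had at least 50 scaled fragments in either library, and of these 17 had at least 2-fold more signal under salt and 5 at least 2-fold less, against 1.27% higher and 1.75% lower over all genes. Their median was 0.36. Both nodal libraries were used in choosing the members, so these values are a description and nothing is read from the comparison with all genes. Members met the minimum in nodal roots only where their level was high enough in at least 1 treatment; over all 200 members without a minimum, 35 were higher and 15 lower. Of the 17 higher in nodal roots, 3 were also higher in S-type roots and 14 were within 2-fold there. Of the 5 lower, 4 were lower in S-type roots, and 4 were lower in L-type roots. Os11g0426400 had 397 scaled fragments in L-type, 1437 in S-type and 85.4 in nodal roots under salt, against 465 in L-type, 1393 in S-type and 9.56 in nodal roots under control. Its nodal ratio of 3.03 was the highest and its lateral ratios, -0.23 in L-type and 0.05 in S-type roots, were near 0.

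**Figure D5:**
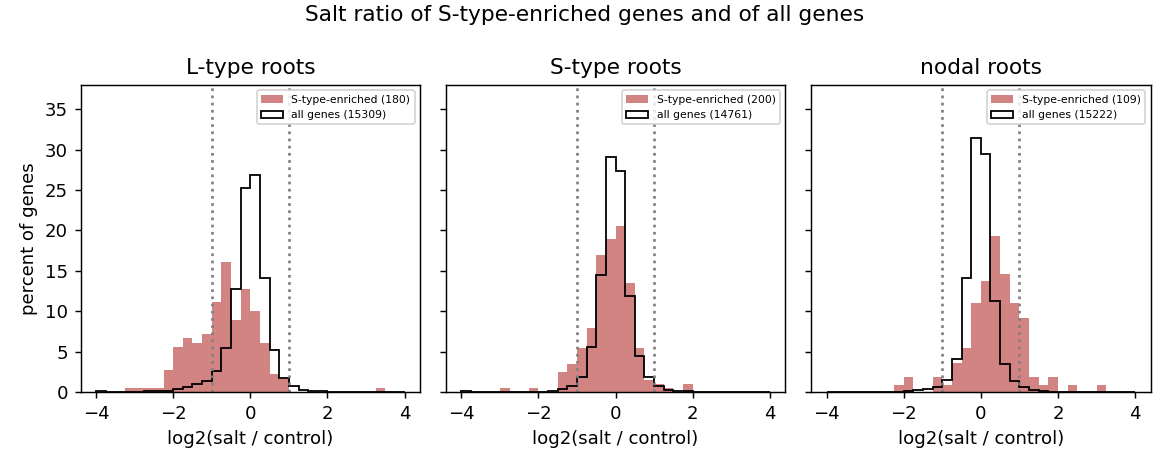
Distribution of the log2 ratio of salt over control in L-type, S-type and nodal roots for S-type-enriched genes (filled) and all genes (line), each as percent of the genes with at least 50 scaled fragments in either library; dotted lines mark 2-fold, and ratios beyond 4 on the log2 scale are drawn at 4. The members' median is -0.62 in L-type, -0.07 in S-type and 0.36 in nodal roots.

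The only test the design allows for salt runs across root types: limma with root type and treatment as terms, whose error term measures how unlike the salt effects of the 3 root types are. Of 199 members tested among 20135 genes, 2 fell and 0 rose at an adjusted p under 0.05, where 0.0546% of all genes fell and 0.0646% rose. At an unadjusted p under 0.05 there were 46 members with limma, where 10.5% of all genes had such a p. With edgeR there were 51, against 10.3% of all genes, and with DESeq2 46, against 5.18%. At an adjusted p under 0.05 the edgeR quasi-likelihood test called the same 2 members, and 28 of all genes (0.139%). DESeq2 called 11 members, of which 2 were higher and 9 lower, and 172 of all genes (0.854%). The test includes the S-type and nodal libraries whose values chose the members.

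Os08g0190100 had 87.4 scaled fragments in L-type, 449 in S-type and 26.5 in nodal roots under salt, against 613 in L-type, 3129.7 in S-type and 105 in nodal roots under control. It lies on chromosome 8, 5264245 to 5265340 and was lower under salt in every root type, with ratios of -2.80 in L-type (interval -3.14 to -2.49), -2.80 in S-type and -1.95 in nodal roots. The limma change was -2.52 on the log2 scale (SE 0.20, adjusted p = 0.0279). Os05g0149400 had 89.2 scaled fragments in L-type, 454 in S-type and 35.7 in nodal roots under salt, against 406 in L-type, 2009.8 in S-type and 148 in nodal roots under control. This gene, on chromosome 5, 2825324 to 2826912, was also lower under salt in every root type, with ratios of -2.17 in L-type (interval -2.53 to -1.85), -2.14 in S-type and -2.02 in nodal roots. Its limma change was -2.12 (SE 0.11, adjusted p = 0.0219). Without the S-type libraries neither passed, with limma adjusted p = 0.122 for Os08g0190100 and 0.0784 for Os05g0149400. The changes were then -2.38 and -2.11. Without the nodal libraries the limma adjusted p was 0.0354 for Os08g0190100 and 0.074 for Os05g0149400. Both passed without the L-type libraries, with limma adjusted p = 0.0181 for Os08g0190100 and 0.00866 for Os05g0149400. Each of these smaller fits has fewer residual degrees of freedom.

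In the authors' deposited table of comparisons, which gives a q-value per pair of libraries, few members were called at q under 0.05. Salt against control gave 0 members in L-type, 1 lower member in S-type and 0 in nodal roots. Few genes of any kind were called there. In L-type roots 0.0244% of the 20457 genes tested were called, 2 higher and 3 lower. In S-type roots 0.0557% of all genes were called lower, and in nodal roots 0 of 20602 genes were called. L-type against S-type roots gave 10 lower members under salt, of 17 genes called lower (0.0825% of all tested), and 5 under control, of 10 genes (0.0487%). In the authors' deposited table L-type against nodal roots gave 1 higher member under salt, of 2 genes called higher (0.00968%), and 4 under control, of 15 genes (0.0717%). The S-type and nodal libraries in these pairs also chose the members, so the counts are descriptions.

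Neighbouring members did not always share their salt ratios. On chromosome 1, between 33659782 and 33679717, 4 members stand in a row. Os01g0794800 and Os01g0794900 carry the same coordinates, and how fragments were divided between them is not given in the sources used here. Os01g0794800 had 506 scaled fragments in L-type, 5747 in S-type and 129 in nodal roots under salt, against 464 in L-type, 5636 in S-type and 56.5 in nodal roots under control. Os01g0795000 had 70.8 scaled fragments in L-type, 688 in S-type and 28.2 in nodal roots under salt, against 317 in L-type, 1922 in S-type and 49.5 in nodal roots under control. The first had an L-type salt ratio of 0.13 and the other -2.15, and in S-type roots they had 0.03 and -1.48.

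On chromosome 2, between 22468206 and 22510620, Os02g0582600 had an L-type salt ratio of 0.89, Os02g0582900 of -1.87 and Os02g0583700 of -2.05. The first thus differed in direction from the others. On chromosome 9, between 19868028 and 19888155, BGLU31 and its neighbours Os09g0511200 and Os09g0511300 all had lower L-type levels under salt, with ratios of -1.18, -1.65 and -1.76. Their S-type ratios were -0.44, 0.40 and -0.12, all within 2-fold. These 3 groups were chosen after their values were seen. The gene models of 60 members overlap another gene model, and how fragments were assigned there is not given in the sources used here. Among the other 140 members, 40 were at least 2-fold lower in L-type roots under salt, with a median of -0.68 over those measured.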

How the data were processed

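Per the labels, strand-specific mRNA libraries were made from RNA extracted with an RNeasy kit. Per the submitters' processing notes, the build was IRGSP-1.0 and the tools included Cuffdiff 2.2.1, Cufflinks 2.2.1, TopHat2 2.0.11, Trimmomatic 0.32 and Bowtie; their settings are not given in the sources used here. The authors deposited a scaled signal per gene, in which 99.94% to 99.97% of values were whole fragments within a tolerance of 0.02 after division by 1 factor per library. They also deposited FPKM values and q-values for pairs of libraries.

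Ratios are log2 of scaled values plus 1, with exact conditional binomial 95% intervals. A gene counted as higher or lower at 2-fold with at least 50 scaled fragments in the higher library. The salt effect was tested with limma 3.58.1 with a trend (R 4.3.3) on log2 values (TMM-scaled, pseudocount 1), after filterByExpr, with root type as a term and Benjamini-Hochberg adjustment over 20135 genes. It left 2 residual degrees of freedom, and the script was tested on simulated data. Because whole fragments could be recovered, edgeR 4.0.16, which called 28 genes where limma called 24, and DESeq2 1.42.0 were run as alternatives. A symbol had to lie within 60 kb plus 5% of the distance to the nearest listed gene and have a length ratio of 0.4 to 1.6 to the table of assembly ASM3414082v1; of 58 symbols on the fixed lists 50 passed. Named genes were members with a checked symbol, the extremes of each ratio, at most 2 higher and 2 lower without a symbol, and those past the limma threshold. The neighbouring genes were named outside this rule. The members and lists were chosen with earlier results of these data known.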

Additional observations from a re-analysis of the deposited data

Results flagged for a closer look

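Among members with at least 50 scaled fragments in either library of each root type, 3 had opposite salt ratios in L-type and nodal roots. Each ratio was at least 2-fold, with 1 library per group, and the difference was not tested. Os11g0428800 had a log2 ratio of salt over control of -1.18 in L-type and 1.09 in nodal roots. Os08g0108100 had -1.21 in L-type and 1.16 in nodal roots. Os07g0192000 had -1.58 in L-type and 1.09 in nodal roots. In S-type roots their ratios were -0.11 for Os11g0428800, 0.73 for Os08g0108100 and 0.54 for Os07g0192000. The nodal libraries of Os11g0428800 held 53.1 scaled fragments under salt and 24.3 under control. The nodal intervals of all 3 reached below 2-fold, with lower bounds of 0.46 for Os11g0428800, 0.59 for Os08g0108100 and 0.87 for Os07g0192000. The L-type intervals of Os11g0428800 and Os07g0192000 lay wholly beyond 2-fold. Without the minimum, 7 members combined a nodal rise with an L-type fall of that size, and 0 the reverse. The nodal libraries also chose the members, and without the minimum a nodal ratio can rest on few fragments. No share over all genes is given, so these counts are descriptions and nothing is read from them.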

How the results depend on the processing

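Of 148 values recomputed under alternative settings, 126 stayed within the limits set, 22 moved and 0 changed direction. Choosing members after TMM scaling shared 199 of the 200. With the top 100 members only, the median log2 ratio of L-type over S-type was -2.91 under salt and -2.41 under control. By construction that smaller set also gave fewer members called: 34 lower and 0 higher in L-type, 8 lower in S-type, and 7 higher and 2 lower in nodal roots, and 1 in the limma test. A minimum of 10 scaled fragments gave 2 higher in L-type and 30 higher and 13 lower in nodal roots; no minimum gave 2 higher in L-type and 35 higher and 15 lower in nodal roots. Members whose gene model overlaps no other, chosen after seeing the data, gave 9 lower in S-type and 2 lower in nodal roots. On a linear scale the L-type place was 0.117 under salt and 0.188 under control. The limma test over root types called 2 members, DESeq2 11, and the limma fit called 1 when nodal libraries were left out, 0 for S-type and 5 for L-type libraries left out. The tests over root types set each salt library against the control library of the same root type. No pairing by plant was possible, because the labels do not say whether 1 plant gave roots of every type. Low nodal levels, which the choice of members favours, limit the nodal ratios: 91 of 200 members had under 50 scaled fragments in both nodal libraries.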
